A study of Caenorhabditis elegans with 2 samples.

Results

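P granules are membraneless droplets of RNA and protein that mark the germ cells of Caenorhabditis elegans. The 10 genes described here encode well-known proteins of these granules: pgl-1, pgl-3, glh-1, glh-2, glh-4, deps-1, meg-1, meg-3, cgh-1 and car-1. They are listed by name and are 10 of 19985 annotated protein-coding genes. The rule itself uses no measured value, but the list was chosen with earlier results of these data known. Binding of the transcription factor DPL-1 near their starts was read from chromatin immunoprecipitation and sequencing (ChIP-seq) of whole young adult worms of mixed sex. Both samples are biological replicates of 1 group, strain YL390, with the genotype unc119(ed3)III and the transgene vrIs48 (pPIE-1::DPL-1::GFP FLAG, the DPL-1 3'UTR and unc-119 (+)). The tagged protein is thus driven by the pie-1 promoter, which is known for germline expression, and the labels name no change to the worm's own dpl-1 gene. The labels describe precipitation of the eGFP-tagged protein, while their antibody field names dpl-1. No second strain, stage or untagged worm entered, and the control that the peak caller used was not analysed here. Peaks come from whole animals, so a peak cannot be assigned to a tissue.

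DPL-1 is the worm DP protein, which binds DNA as a partner of an E2F-type factor and sits in the DREAM complex with the pocket protein LIN-35. In the soma this complex is known to keep germline genes off, and worms without LIN-35 are known to make P granule proteins in somatic cells. In the germline, DPL-1 and its partner EFL-1 are known to be needed for the expression of genes used in oocytes and early embryos. PGL proteins are the scaffold of P granules, GLH proteins are Vasa-type RNA helicases, and DEPS-1 is needed for normal GLH and PGL accumulation. MEG proteins are disordered proteins that shape the granules of the early embryo. CGH-1, a helicase of the DDX6 family, and its partner CAR-1 hold maternal messenger RNA in granules that overlap P granules.

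Of the 10 genes, 6 were bound, namely cgh-1, glh-2, deps-1, car-1, pgl-3 and meg-1, while pgl-1, glh-1, glh-4 and meg-3 were not. The authors' optimal list holds the peaks that passed a threshold on the irreproducible discovery rate (IDR). Bound means here that such a peak had its summit in a promoter window, which starts 1000 bp before an annotated transcript start and ends 500 bp after it. By this rule 9.22% of all coding genes were called (1842 of 19985). The optimal list is the 1546 peaks of highest signal among the 30000 pooled peaks, and its signals run from 23.7 to 738. Signal is the authors' own value for a peak against the control, is compared here only within a list, and is turned into a rank (1 is the strongest) across lists. A pooled peak, weak or strong, lay in the window of all 10 genes, against 50.4% of coding genes. The pooled list was deposited as peaks and background for the IDR step, so its weak entries can be background. The only pooled entry of meg-3 had a deposited −log10 q of 0.198. The strongest pooled peak of the 10 genes had a median rank of 1332, against 8862 over the coding genes that had such a peak. The median over the 10 genes was 2808 with a narrow window, 500 bp before to 250 bp after a start. By rank in the replicate 2 list alone, it was 2063.5. A gene lacking a peak was placed last. The 8862 is for the pooled list with the full promoter window only, so it is no background for these 2 values. With 1 group of 2 samples no test between conditions exists, and all counts and medians here are descriptions. Read depth is unknown, so a single signal has no counting error, and the ranks in the 2 replicates stand for its spread.

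**Figure D1:**
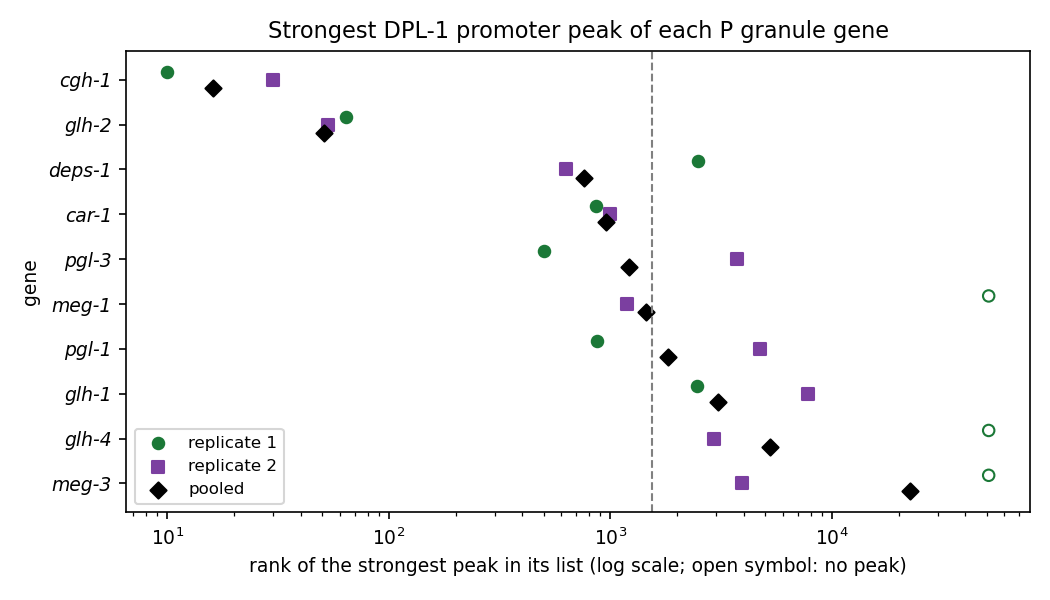
Rank of the strongest promoter peak of each gene (x axis, log scale) in the lists of replicate 1 (circles), replicate 2 (squares) and the pooled reads (diamonds), with genes on the y axis. The dashed line is rank 1546, the end of the optimal IDR list, and open symbols at the right edge mark genes with no peak in a list. Both replicates place cgh-1 and glh-2 far to the left, while meg-1, glh-4 and meg-3 have no replicate 1 peak.

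The mRNA-storage gene cgh-1 held the strongest peak of the set. The cgh-1 peak (chromosome III, 7498438 to 7498751 on ce11) had a pooled signal of 252 and rank 16, with signals of 85.0 in replicate 1 (rank 10) and 163 in replicate 2 (rank 30). It was thus among the strongest peaks of both replicates, and only 0.105% of coding genes had a stronger pooled peak. In the optimal list it stood between the peak of ddp-1 and ttc-7 (signal 256, rank 15) and that of ima-2 (signal 251, rank 17). Its summit lay 767 bp upstream of the annotated start, in no gene, and no other gene's window held it. The gap between cgh-1 and C07H6.9, the next coding gene upstream and on the same strand, was 915 bp. The summit was thus nearer to the end of C07H6.9 than to the cgh-1 start. Among bound coding genes, 6.62% had their strongest summit farther upstream than this. Many worm transcripts are trans-spliced to a leader, so an annotated start can differ from the site of initiation. With the narrow window, cgh-1 was not bound and its best pooled peak had rank 3804 and lay 117 bp upstream of the start (signal 12.3). That second peak ranked 1235 in replicate 2 (signal 19.2) and had no counterpart within 100 bp in replicate 1. The weakest pooled peak, 370 bp downstream of the start in a coding exon, ranked 16562 and also lay 808 bp upstream of the snoRNA gene C07H6.10. Outside the window, 1853 bp upstream, lay another strong peak (signal 178, rank 58), which was 53 bp upstream of sap-140 and 214 bp upstream of C07H6.9.

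The cgh-1 summit had 1 match to each of 2 short motifs of the kinds known from DREAM target promoters, an E2F-type site (TTNNCGC, where each N is C or G) and a CHR-type site (TTTGAA or TTCGAA). They are shown because cgh-1 has the highest signal of the set, on the strand of the gene, with the matched letters in capitals and 10 bases on either side. The E2F-type match is centred 42 bp from the summit, and the CHR-type match 63.5 bp from it, both farther upstream than the summit, with 15 bases between them.
cgh-1 E2F-type, chrIII:7498628-7498654 (ce11, minus strand): gccattttgtTTCGCGCgttggctgag
cgh-1 CHR-type, chrIII:7498650-7498675 (ce11, minus strand): gaaatctaatTTTGAAttaccgccat

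The peak of car-1 also lay far upstream. It ran on chromosome I from 12903526 to 12903815, with a pooled signal of 35.2 (rank 957), 13.8 in replicate 1 (rank 860) and 23.1 in replicate 2 (rank 999). The ranks of the replicates were close, at a ratio of 1.16, where the median over 1177 optimal promoter peaks found in both replicates was 1.85. The summit was 799 bp upstream of car-1 but 222 bp upstream of coa-5, a gene on the other strand named for assembly of cytochrome c oxidase, and the gap between the genes was 1020 bp. The peak therefore cannot be assigned to car-1, which was not bound when a peak counted only for its nearest coding start, nor with the narrow window. A weaker pooled peak 150 bp upstream of car-1 ranked 15548 (signal 6.43), and it was found in replicate 2 (rank 6874) and not within 100 bp in replicate 1.

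The GLH helicase genes differed widely in rank, and only glh-2 was bound. The glh-2 peak (chromosome I, 6513817 to 6514016) had a pooled signal of 187 (rank 51), 49.8 in replicate 1 (rank 64) and 141 in replicate 2 (rank 53). Its pooled summit lay 1 bp inside the annotated start, in the 5′ UTR, and 99 bp upstream of the divergent gene C55B7.11, with 97 bp between the genes. An E2F-type match was centred 10 bp from the summit and a CHR-type match 1.5 bp from it, with 2 bases between them.

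The glh-1 gene had 1 pooled peak, of signal 13.9 and rank 3074, found in replicate 1 (signal 7.94, rank 2446) and in replicate 2 (signal 6.02, rank 7785). Its pooled summit was 397 bp inside the gene, in an intron, and the replicate summits were in coding sequence nearby. No pooled peak was found upstream of glh-1 within the window, and the nearest optimal summit was 18548 bp upstream, at ahcy-1 and K02F2.11. The glh-4 gene had 1 pooled peak 365 bp upstream (signal 10.5, rank 5242), which replicate 2 held at rank 2940 (signal 10.1) and replicate 1 lacked. Its nearest optimal summit was 14277 bp downstream of its start, at larp-5 and sld-2. Neither gene was among the 1546 strongest peaks of either replicate.

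The deps-1 peak was stronger in replicate 2 than in replicate 1 by rank. It ran on chromosome I from 506186 to 506475, with a pooled signal of 42.6 (rank 762), 7.90 in replicate 1 (rank 2476) and 33.9 in replicate 2 (rank 632). The ratio of ranks was 3.92, and 17.2% of the optimal promoter peaks found in both replicates had a larger one. By the 1546 strongest peaks of each replicate, deps-1 was bound in replicate 2 and not in replicate 1. The summit lay 142 bp upstream of deps-1 and 81 bp upstream of the divergent gene Y65B4BL.4, so by nearest start the peak went to Y65B4BL.4. Weaker pooled peaks lay 949 bp upstream (rank 5540), in a coding exon of Y65B4BL.4, and 339 bp downstream (rank 7178), in a coding exon of deps-1.

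**Figure D2:**
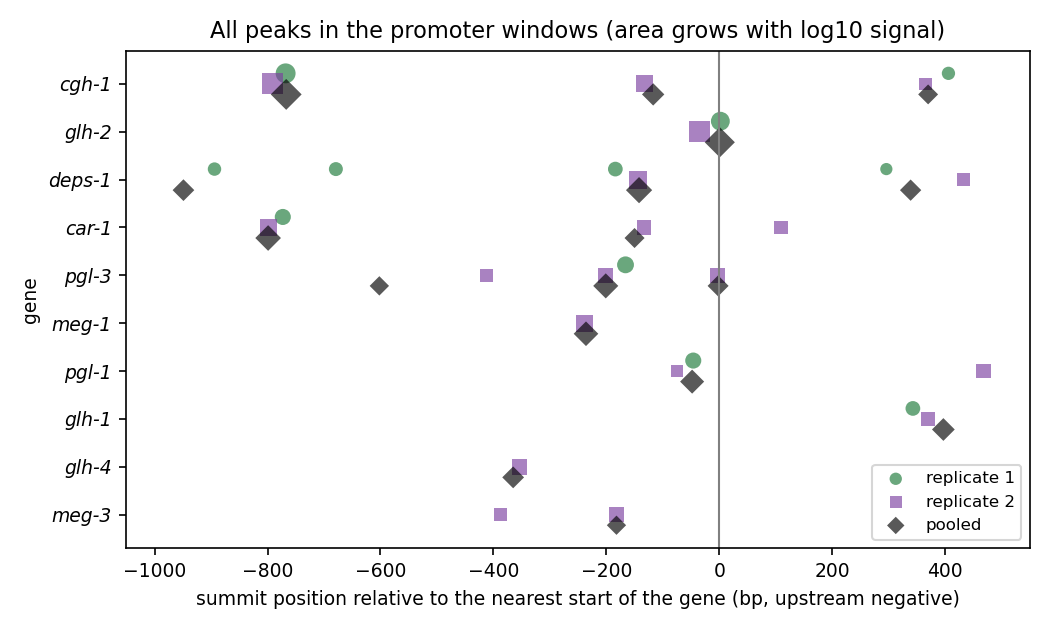
Summits of all peaks in the promoter windows of the 10 genes (y axis), by distance in bp from the nearest annotated start of the gene (x axis, upstream negative). Circles are replicate 1, squares replicate 2 and diamonds the pooled list, and symbol area grows with log10 signal. The strongest cgh-1 and car-1 summits lie 767 and 799 bp upstream, and that of glh-2 lies at the start.

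The scaffold genes pgl-3 and pgl-1 stood on either side of the threshold, and both ranked higher in replicate 1. The pgl-3 peak (chromosome V, 4755633 to 4755922) had a pooled signal of 29.1 (rank 1213), 19.4 in replicate 1 (rank 501) and 8.78 in replicate 2 (rank 3729). The ratio of ranks was 7.44, and 8.24% of the optimal promoter peaks found in both replicates had a larger one. By the 1546 strongest peaks of replicate 2 alone, pgl-3 was not bound. The summit lay 201 bp upstream of pgl-3 in the 525 bp between it and hil-4, a linker histone gene, and no other window held it. Outside the window, 1729 bp upstream of pgl-3, lay a stronger peak (signal 72.7, rank 385), 63 bp upstream of hil-4. Weaker pooled peaks lay 2 bp (rank 8622) and 602 bp (rank 21379) upstream of pgl-3, the latter in a UTR of hil-4. Neither had a replicate 1 summit within 100 bp. In replicate 2, the peak at 2 bp had one (rank 5708) and the peak at 602 bp had none.

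The pgl-1 gene had a pooled peak just under the threshold. The peak (chromosome IV, 6977221 to 6977510) had a signal of 20.8 (rank 1812), where the lowest optimal signal was 23.7. In replicate 1 it had a signal of 13.8 and rank 866, so pgl-1 was bound by the 1546 strongest peaks of that replicate. In replicate 2 the summit nearest to it ranked 23096 (signal 2.97), and the strongest peak in the window was another, 468 bp inside the gene (signal 7.76, rank 4709). The pooled summit lay 48 bp upstream of pgl-1 and 142 bp upstream of him-3, a gene for a meiotic chromosome axis protein, in the 189 bp between these divergent genes. No optimal summit lay nearer to pgl-1 than 57653 bp.

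CHR-type matches at these summits are shown because neither promoter had an E2F-type match within 100 bp. Of the 3 matches at pgl-3, the nearest was centred 14.5 bp from the summit and the next 34.5 bp from it, and the match at pgl-1 was 24.5 bp from its summit. Each is on the strand of its gene with 10 bases on either side.
pgl-3, chrV:4755780-4755805 (ce11, plus strand): tagattttttTTTGAAaaactgattt
pgl-3, chrV:4755731-4755756 (ce11, plus strand): ctcgcaatatTTCGAAttcggtaatg
pgl-1, chrIV:6977378-6977403 (ce11, minus strand): catattttgaTTTGAAaaaaaaaact

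The MEG genes are on the X chromosome, where 1.14% of coding genes were bound (31 of 2731). The meg-1 peak (13929725 to 13930014) had a pooled signal of 25.0 and rank 1451, near the end of the optimal list, with its summit 236 bp upstream of the start. In replicate 2 it had a signal of 19.8 and rank 1187, and replicate 1 had no peak in the window. By the 1546 strongest peaks of each replicate, meg-1 was bound in replicate 2 and not in replicate 1. How far replicate 1 reads added to the pooled peak was not tested. No other gene's window held the summit, and 5239 bp lay between meg-1 and elt-3, its divergent neighbour. The meg-3 gene had a pooled peak 182 bp upstream, of signal 5.26 and rank 22508, which was 945 bp upstream of the divergent gene Y40A1A.2. In replicate 2 that peak ranked 3933 (signal 8.53), replicate 1 had none, and the nearest optimal summit was 133247 bp away.
meg-1 CHR-type, chrX:13929942-13929967 (ce11, minus strand): attgtccaaaTTCAAAgttttatttg
The capitals in meg-1 are the match as it reads on the gene's strand, which is the reverse complement of TTTGAA, and its centre was 84.5 bp from the summit.

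**Figure D3:**
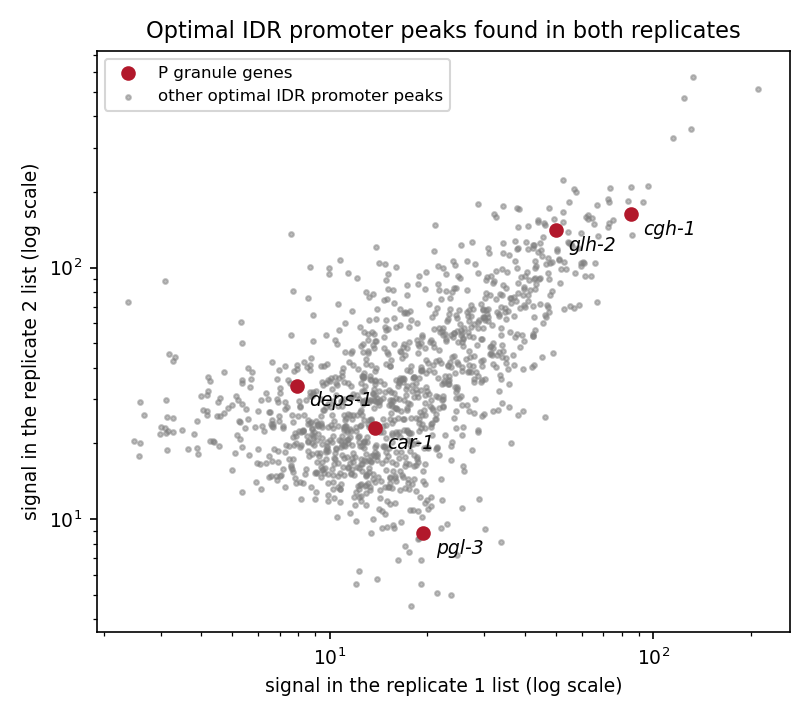
Authors' signal in the replicate 1 list (x axis, log scale) and the replicate 2 list (y axis, log scale) at the 1177 optimal IDR promoter peaks with a summit within 100 bp in both lists. Red points are the peaks of cgh-1, glh-2, deps-1, car-1 and pgl-3, and grey points are the others. The cgh-1 point lies at 85.0 and 163, the glh-2 point at 49.8 and 141, and the pgl-3 point at 19.4 and 8.78, replicate 1 first.

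The replicates marked partly different genes. The replicate 1 list had peaks in the windows of 7 of the 10 genes (50.4% of coding genes), with glh-4, meg-1 and meg-3 lacking one, and the replicate 2 list had peaks in all 10 (49.3% of coding genes). Both lists had a peak in the windows of 7 genes, against 32.1% of coding genes. The strongest pooled peak had a summit within 100 bp in both replicate lists at 7 of the 10, against 31.6% of the coding genes with a pooled peak. The 1546 strongest peaks of replicate 1 marked pgl-1, pgl-3, glh-2, cgh-1 and car-1 (8.89% of coding genes), and those of replicate 2 marked glh-2, deps-1, meg-1, cgh-1 and car-1 (8.82%). Both replicates marked 3 of the 10, namely glh-2, cgh-1 and car-1 (6.41% of coding genes).

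The bound genes had lower signals than most bound genes, apart from cgh-1 and glh-2. The median optimal signal was 38.9 over the 6 bound genes, against 45.9 over all 1842 bound coding genes, and the median ranks were 859.5 and 686. Bound genes were on chromosome I (3 of 5 members, where 15.1% of coding genes were bound), III (cgh-1, 16.1%), V (pgl-3, 5.67%) and X (meg-1). Chromosome IV, with 9.63% of coding genes bound, held pgl-1 alone. Of the 6 bound genes, glh-2, deps-1 and car-1 shared the peak with a divergent neighbour. Over all 1308 optimal promoter peaks, 43.1% lay in the windows of 2 or more coding genes.

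**Figure D4:**
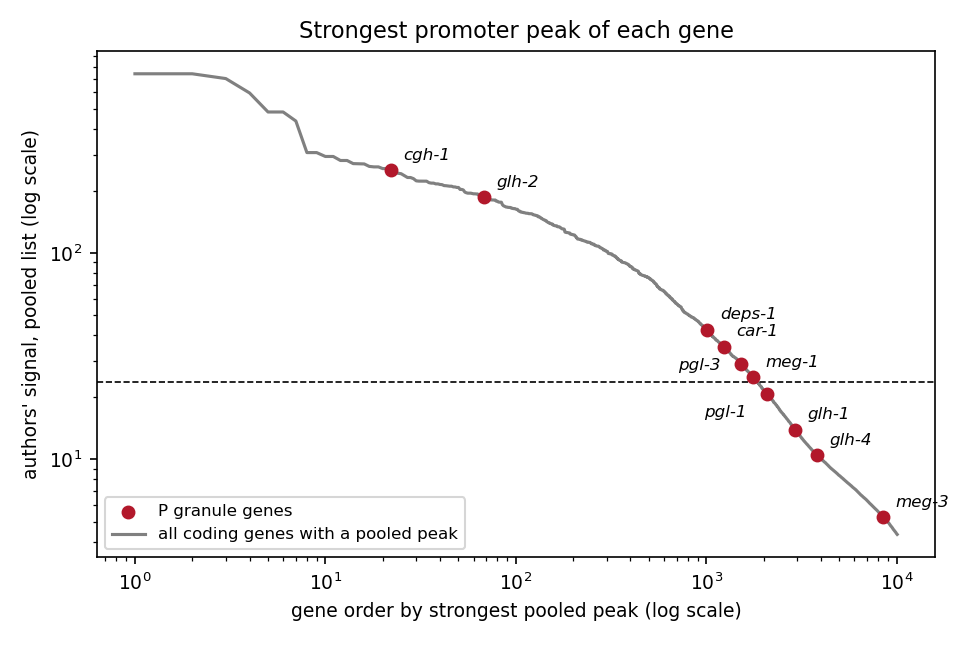
Authors' signal of the strongest pooled promoter peak (y axis, log scale) for every coding gene that has one, in order of signal (x axis, log scale). The line is all such genes, red points are the 10 P granule genes, and the dashed line is 23.7, the lowest optimal IDR signal. The red points run from cgh-1 at 252 to meg-3 at 5.26.

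The E2F-type motif was about as frequent at the bound summits as at optimal promoter summits in general. The E2F-type motif, on either strand, lay within 100 bp of the summit at cgh-1 and glh-2 and at none of deps-1, car-1, pgl-3 and meg-1. That is 2 of 6, against 38.3% of 1286 nuclear optimal promoter summits. The same 2 had it within 50 bp, against 32.1% of the optimal promoter summits, and within 250 bp, against 43.6%. Among the 11 weaker pooled summits of the 10 genes none had it, against 8.67% of the pooled promoter summits outside the optimal list. The CHR-type motif, on either strand, lay at 6 of the 6 bound summits, against 65.5% of the optimal promoter summits, and at 5 of the 11 weaker ones, against 54.2%. No E2F-type match overlapped a CHR-type match at these summits. The share of G and C within 100 bp ran from 34.3% to 45.3% at the bound summits (median 37.8%), against a median of 38.3% over the optimal promoter summits. A match only says that these letters are present.

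Of the 45 other germ granule genes looked up, 27 (60%) were bound, against 9.22% of all coding genes. These lists too were chosen with earlier results of these data known, so the count is only a description. At 18 of the 27 another gene's window held the same summit, so these peaks cannot be assigned to the named gene alone. At 10 of them another gene's start was nearer. The 10 were gld-3, vbh-1, ifet-1, patr-1, lsm-3, mex-5, par-1, wago-1, hrde-1 and simr-1. Neighbours here include non-coding genes, unlike the 43.1% given above, and are not set against a share of all bound genes. The only neighbour of par-1 was the non-coding gene 21ur-15491. For wago-1 the only nearer start was that of the non-coding gene 21ur-11100. The few unbound genes named below were named after their values were seen. The RNA-binding proteins found on P granules in the early embryo had 8 of 9 genes bound. These were mex-1 (signal 203), pie-1 (157), oma-1 (90.9), spn-4 (83.5), mex-3 (78.3), pos-1 (66.8), oma-2 (34.1) and nos-2 (32.4), while gld-1, a translational repressor of meiotic germ cells, was not bound (pooled rank 3045). The transgene carries the pie-1 promoter, so its reads and those of the native pie-1 promoter cannot be told apart. Regulators that segregate P granules in the zygote were bound at 5 of 6. Among them mex-5 had a signal of 138, pptr-1, a phosphatase subunit that stabilises the granules, 72.1, mex-6 64.0, pptr-2 44.8 and par-1, a polarity kinase, 24.6, and mbk-2 was not bound.

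Genes for Argonautes and partner granules were bound at 6 of 10. They were wago-4 (signal 113), the Z granule helicase gene znfx-1 (90.5), hrde-1 (82.1), simr-1 (50.8), wago-1 (47.6) and csr-1 (34.7), and the other 4 were not bound. Of the partners of CGH-1 and CAR-1 and the P body genes, 5 of 9 were bound. The translational repressor gene ifet-1 had 123, the Y-box genes cey-2 and cey-3 52.1 and 48.9, patr-1 43.9 and lsm-3 41.7. Of these, the ifet-1, patr-1 and lsm-3 summits were nearer to the start of another gene. For lsm-3 the nearer starts were those of mdt-9, Y62E10A.20 and Y62E10A.23. Genes for proteins that bind P granule proteins or help assemble them were bound at 3 of 7, with mip-1, a binding partner of GLH and PGL proteins, at 78.1, gld-3 at 31.4 and vbh-1 at 31.1. Paralogs of the 10 genes were bound at 0 of 4, a count too small to set against the 9.22% of coding genes, and meg-2 and meg-4 are on the X chromosome, where 1.14% were bound. The strongest pooled peak was at rank 8549 for glh-3, 18975 for meg-4 and 29713 for meg-2, and pgl-2 had none. The 9 bound genes with no neighbour at the peak were mip-1, mex-6, pptr-1, pie-1, mex-3, oma-1, oma-2, nos-2 and znfx-1.

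**Figure D5:**
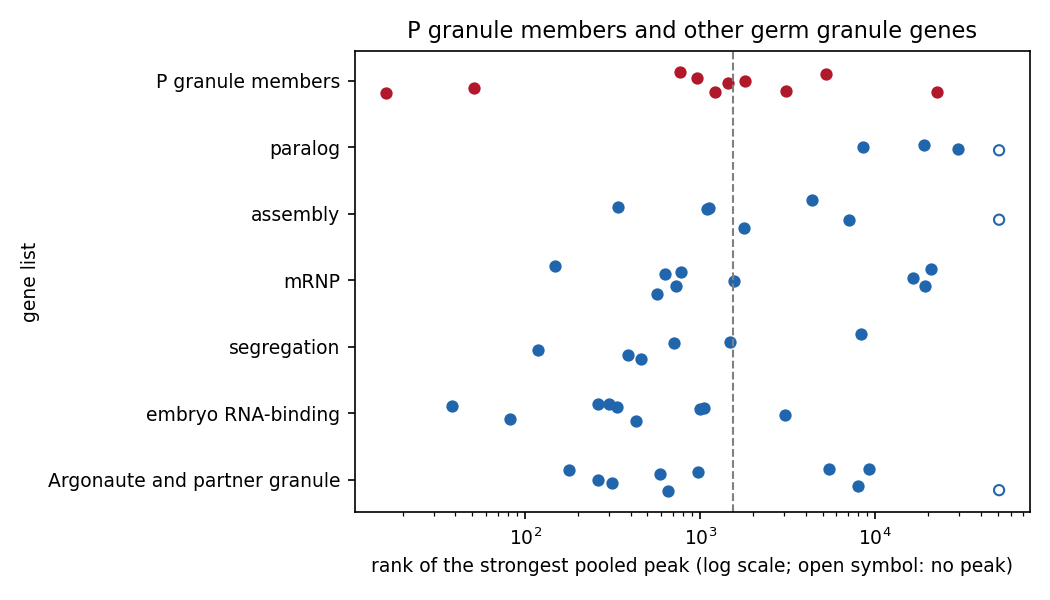
Rank of the strongest pooled promoter peak (x axis, log scale) for the 10 P granule genes (red) and for the other germ granule genes by list (blue), with the lists on the y axis and points spread vertically for sight only. The dashed line is rank 1546 and open symbols mark genes with no pooled peak. The paralogs lie right of the line, at 8549 and beyond, and 8 of the 9 embryo RNA-binding genes lie left of it.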

How the data were processed

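Peak lists of 2 replicates were used as deposited on ce11, the same assembly as WBcel235, whose Ensembl 115 annotation gave genes and starts. Per the deposited description files, each replicate list was called on that replicate's alignment with a control, the pooled list on both, and the optimal list came from the other lists by IDR. For the aligner and the peak caller, names and versions were not given in the sources used here. The signal values and the −log10 q values are those the authors deposited with each peak. The q values shared 1 maximum in the optimal list and were not used to rank. The replicate and pooled lists hold 30000 entries each, so their length says nothing of depth. The depth is unknown because the reads were not analysed. The ce10 lists were not used, and the control, reads and signal tracks were not analysed here.

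A summit was the peak start plus the summit offset. Distances are to the nearest annotated start of the gene, over 29796 distinct coding starts, and ranks are by signal within a list. Motifs were searched on both strands of the RefSeq copy of WBcel235, in windows of 100 bp to either side of the summit, and the sequences are from that copy. Python 3.11.15 and pandas 2.3.3 were used, and the assignment was tested on simulated data. The members and lists were chosen with earlier results of these data known. Named were all 10 members with each pooled peak, the neighbours at those peaks, the other germ granule genes that were bound, and the peaks next in rank to the strongest member. Of 46 names in the other lists, 1 (ntl-1) had no gene under that name. Alternatives were other windows, peak interval, nearest start, most upstream start, stronger peaks, each replicate alone, and other match distances and motif settings.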

Additional observations from a re-analysis of the deposited data

How the results depend on the processing

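The count of bound genes was 6, where 9.22% of all coding genes were bound. It was 4 with the narrow window (7.56% of coding genes) or nearest start only (6.39%). It stayed at 6 with the wide window (11.5%), the peak interval (9.53%) and the most upstream start (8.87%). It was 3 with the stronger 50% of the optimal list (glh-2, deps-1 and cgh-1), against 5.12% of coding genes. The 1546 strongest peaks of 1 replicate alone gave 5, for replicate 1 (8.89% of coding genes) and for replicate 2 (8.82%). The median rank of the strongest pooled peak was 1332. It was 2808 with the narrow window (500 bp before to 250 bp after a start) and 1204 with the wide one (2000 bp before to 1000 bp after). By rank in the list of 1 replicate alone, the median was 1656 (replicate 1) or 2063.5 (replicate 2). A gene lacking a peak was placed last. The narrow window left glh-1 with no pooled peak. The strongest pooled peak was matched in both replicates at 7 of the genes, and at 6 with summits within 50 bp and 7 within 200 bp. The E2F-type motif was at 2 of the 6 bound summits under each motif setting. The share of optimal promoter summits with it was 38.3% in the main search, 32.1% within 50 bp and 43.6% within 250 bp. With a further T required in front of the motif, that share was 22.3%. Of the other germ granule genes 27 were bound, and 23, 28 and 20 with the narrow window, the wide window and the stronger 50% of peaks. The shares of all coding genes under these 3 settings were 7.56%, 11.5% and 5.12%. No paired analysis was possible because there is 1 group. The unknown depth limits what a missing replicate 1 peak can show.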
